A study of Mus musculus with 10 samples.

Results

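The selectin gene cluster on mouse chromosome 1 and the genes that make selectin ligands were described in hematopoietic stem cells (HSCs) with and without the transcriptional regulator gene *Cited2*. The description covered 9 of the 26146 genes in the count table: *Selp*, *Sele*, *F5*, *Gm16548*, *Selplg*, *Cd44*, *Fut7*, *Fut4* and *St3gal4*. These genes were chosen by name. *Selp* and *Gm16548* were selected on their known difference between the genotypes in these same libraries, and the others were added for their place beside *Selp* or their role in selectin binding. The genotype differences of the 9 genes are therefore given as a description with no p-value. RNA-seq libraries came from LSKCD48-CD150+ HSCs, sorted from 1 mouse each, with 5 mice per genotype. *Cited2* CTL mice, labelled wildtype, carried *Cited2* fl/fl without Cre, and *Cited2* CKO mice, labelled Cited2 KO, carried *Cited2* fl/fl;Vav-iCre. All mice had the floxed alleles on a C57BL/6J background and were 8 to 12 weeks old. The Cre transgene was present only in the CKO mice, so its own effect and that of the deletion cannot be told apart. Vav-iCre acts across the hematopoietic system and not in HSCs alone.

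Selectins are lectins that let cells tether to and roll along vessel walls. P-selectin (*Selp*) is stored in platelets and endothelial cells and moved to the surface on activation, and E-selectin (*Sele*) is made by activated endothelium and by bone marrow vessels. Their ligands are proteins such as PSGL-1 (*Selplg*) and CD44, which bind only after glycosyltransferases have built sialylated and fucosylated sugars on them, and HSCs use such ligands to home to the marrow. *Selp* transcripts are also known to be abundant in HSCs of old mice.

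In the deposited counts, the totals lay between 3058690 and 4548795 per CTL library and between 3500215 and 4315029 per CKO library. *Cited2* stood at 101 to 222 CPM (counts scaled to a common library size by TMM, the trimmed mean of M-values) in CTL libraries and at 3.80, 4.21, 5.00 and 8.30 CPM in CKO libraries 1, 2, 4 and 5. The library labelled CKO 3 held 120 CPM of *Cited2*, within the range of the controls, and the members' values are given with and without it. The 9 HSC markers were all measured, with a summed level of 1779 to 2083 CPM in CTL and 1636 to 1864 CPM in CKO libraries. The marker lists of HSCs and 7 other cell types held 43 tested genes, of which edgeR, DESeq2 and limma-voom called 0. Of all tested genes, edgeR called 0.12% higher and 0.106% lower, DESeq2 1.15% and 1.37%, and limma-voom 0.0918% and 0.106%. With 3 higher and 2 lower at an unadjusted p under 0.05 (edgeR), the markers stood beside 5.80% and 7.08% of all tested genes. Within each genotype the libraries differed widely in neutrophil markers, with a summed level of 49.83 to 579.8 CPM in CTL and 56.65 to 334.6 CPM in CKO. *Mpo* stood at 189.7 CPM in CTL 5 and 108.3 CPM in CKO 5, beside at most 19.99 CPM in the other libraries. A comparison of the genotypes does not test such differences within a genotype.

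Of the selectin cluster, *Selp* and *Gm16548* are given first, as they were picked for their difference between the genotypes. *Selp* averaged 63.7 ± 24.4 CPM (SD, n = 5) in CTL and 195 ± 37.2 CPM (n = 5) in CKO HSCs, a 3.05-fold difference. *Gm16548*, a noncoding RNA on the other strand that overlaps the end of *Selp* and the start of *F5*, was 3.51-fold higher. As 35.7% of its exon bases are also *Selp* exon bases, its reads could not be fully told from those of *Selp*. *F5*, the next gene downstream, did not share the direction, and the ligand genes differed little between the genotypes. A gene was called at an adjusted p under 0.05 with a fold change above 20%.

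*Selp* lies on the plus strand of chromosome 1 at chr1:164115264-164150026 (GRCm38). Its level was 44.1, 85.1, 40.3, 93.8 and 55.1 CPM in CTL libraries 1 to 5. It was 216, 214, 129, 205 and 213 CPM in CKO libraries 1 to 5. Every CKO library stood above every CTL library. CKO 3, the library with 120 CPM of *Cited2*, was the lowest of its group and far from the other 4. Those 4 differed by only a few percent. The log2 fold change was 1.61 ± 0.22 (SE), and 1.72 without CKO 3. Among all 14165 tested genes, CKO libraries lay wholly above CTL libraries in 1.35% and wholly below in 1.98%. Of the 8 measured members, 2 (*Selp* and *Gm16548*) lay wholly above, 0 lay wholly below and 6 overlapped. As *Selp* and *Gm16548* were picked for this difference, nothing is read from these counts. In bulk RNA, more cells that express a gene and more RNA per cell cannot be told apart.

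Endothelial cells and platelets are the classical sources of P-selectin, so their markers are given beside it. Of 10 endothelial markers, 7 were tested, and the summed level of all 10 was 314 to 334 CPM in CTL and 353 to 428 CPM in CKO libraries, without overlap. Most of that sum came from *Tek*, *Pecam1* and *Egfl7*, which HSCs also express. *Tek* averaged 117 CPM in CTL and 150 CPM in CKO. Of the 7 tested, 6 had a log2 fold change above 0 and edgeR called 0. With an unadjusted p under 0.05, 2 were higher and 1 lower, beside 5.80% and 7.08% of all tested genes. *Kdr*, the main VEGF receptor of endothelium, averaged 8.47 ± 5.87 CPM in CTL and 18.4 ± 6.01 CPM in CKO (SD, n = 5 each), 2.17-fold higher with an adjusted p of 0.330 by edgeR. The other markers averaged below 10 CPM and differed in direction. *Cdh5* stood at 1.90 CPM in CTL and 1.69 CPM in CKO and *Cldn5* at 4.66 and 1.46 CPM, whereas *Flt1* stood at 4.78 and 6.49 CPM, *Stab2* at 6.02 and 6.80 CPM, and *Plvap* at 2.29 and 3.70 CPM. *Lyve1*, a marker of marrow sinusoids, had 0, 6, 1, 2 and 1 counts in CTL libraries and 6, 11, 0, 5 and 22 in CKO libraries, a mean of 0.503 and 2.14 CPM. The summed level of 8 megakaryocyte and platelet markers was 269 to 338 CPM in CTL and 266 to 350 CPM in CKO. The part of either cell type in the *Selp* difference was not tested.

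The 250 bases in front of the RefSeq starts of *Selp* (chr1:164115014-164115263, GRCm38.p6, plus strand) and *Sele* (chr1:164047984-164048233, plus strand) are shown because both selectin genes are written in the same direction in 1 cluster while their levels differed. Capitals mark matches, on either strand, to 8 motifs: the GATA motifs AGATAA and TGATAA, the ETS motifs ACAGGAAG and CCGGAAGT, the RUNX motif TGTGGT, the NF-kappaB motifs GGGACTTTC and GGGAATTTC, and the core hypoxia response motif ACGTG.
Selp: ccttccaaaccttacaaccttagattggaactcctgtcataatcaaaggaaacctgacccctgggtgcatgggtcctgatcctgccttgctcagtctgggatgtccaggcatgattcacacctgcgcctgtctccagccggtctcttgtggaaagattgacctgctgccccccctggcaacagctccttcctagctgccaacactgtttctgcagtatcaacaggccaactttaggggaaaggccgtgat
Sele: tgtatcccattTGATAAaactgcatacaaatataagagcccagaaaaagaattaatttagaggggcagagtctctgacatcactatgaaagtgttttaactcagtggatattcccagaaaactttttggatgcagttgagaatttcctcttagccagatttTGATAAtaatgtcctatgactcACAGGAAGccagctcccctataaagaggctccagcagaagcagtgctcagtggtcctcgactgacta
The *Sele* window held TGATAA at 239 to 234 and at 89 to 84 bases before the start, and ACAGGAAG at 67 to 60 bases before it. The *Selp* window held none of the 8, which says only that these letters are not in these bases. Among 32851 RefSeq promoter windows of the same length, 7.94% held TGATAA, 9.99% AGATAA, 2.90% ACAGGAAG, 2.88% CCGGAAGT, 14.0% TGTGGT, 0.289% GGGACTTTC, 0.234% GGGAATTTC and 16.6% ACGTG. No motif overlapped another in the *Sele* window. Promoters were found for 7 of the 9 genes, 8 windows in all, and 5 of the 8 windows held no match. The *Cd44* window held AGATAA and ACGTG, and 1 *Fut7* window held AGATAA and TGTGGT on the minus strand.

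*Sele*, which lies at chr1:164048234-164057677, was nearly silent. It had 2, 3, 5, 5 and 7 counts in CTL libraries 1 to 5, and 17, 16, 20, 2 and 1 counts in CKO libraries 1 to 5. The genotypes overlapped, since the lowest and the highest counts were both in CKO libraries, and CKO 3 was the highest. The mean was 1.13 ± 0.399 CPM in CTL and 2.71 ± 2.12 CPM in CKO (SD, n = 5 each), and 2.2 ± 2.08 CPM in the 4 CKO libraries without CKO 3. *Sele* was the 1 member that did not pass the filter on low counts, so it has no fitted fold change.

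**Figure D1:**
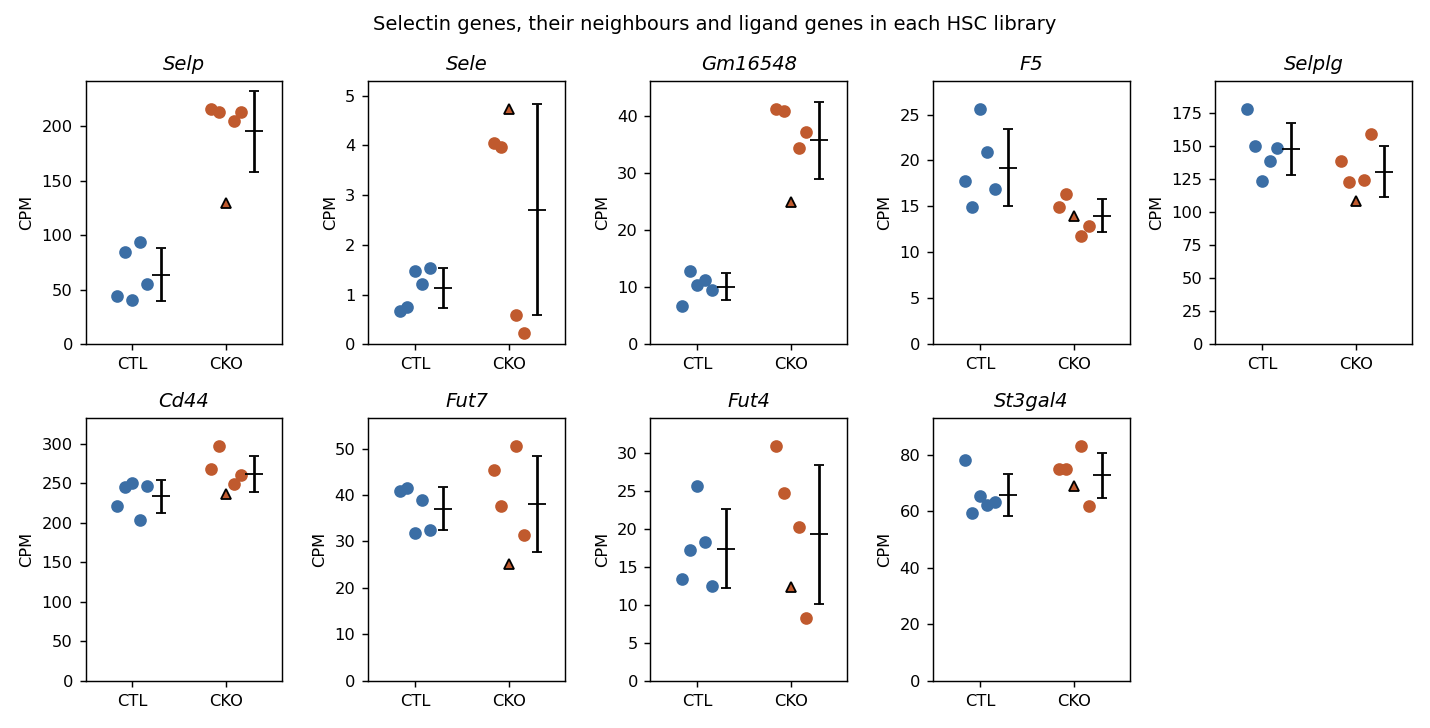
CPM (vertical axes, from 0, each gene on its own scale) of the 9 genes in the 5 Cited2 CTL and 5 Cited2 CKO libraries. Points are libraries, the triangle is CKO 3, and the bar beside them is the mean ± SD. The CKO points of *Selp* and *Gm16548* lie wholly above the CTL points, whereas the other genes overlap.

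*Gm16548*, annotated as a long intergenic noncoding RNA, lies on the minus strand at chr1:164148591-164152217 and overlaps the end of *Selp* and the start of *F5*. Its level was 6.69, 12.9, 10.3, 11.2 and 9.41 CPM in CTL libraries and 41.1, 40.8, 24.8, 34.4 and 37.1 CPM in CKO libraries. All CKO libraries stood above all CTL libraries, and CKO 3 was the lowest of the CKO group, as for *Selp*. The mean was 10.1 ± 2.30 CPM in CTL and 35.6 ± 6.66 CPM in CKO (SD, n = 5 each). The log2 fold change was 1.81 ± 0.22 (SE), and 1.92 without CKO 3.

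Reads of *Gm16548* could not be fully told from those of its neighbours. Of its 1226 annotated exon bases, 438 (35.7%) are also exon bases of *Selp* and 262 (21.4%) of *F5*, on the opposite strand, and 526 belong to neither. Whether the counting used strand is not stated. *Gm16548* counts amounted to 15.2, 15.1, 25.5, 11.9 and 17.1% of the *Selp* counts in CTL libraries and to 19.1, 19.1, 19.2, 16.8 and 17.4% in CKO libraries, so the ratio to *Selp* overlapped between the genotypes. The ratio to *F5* did not: *Gm16548* reached 37.7 to 86.4% of the *F5* counts in CTL libraries and 178 to 292% in CKO libraries. How many *Gm16548* reads came from *Selp* transcripts was not tested.

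**Figure D2:**
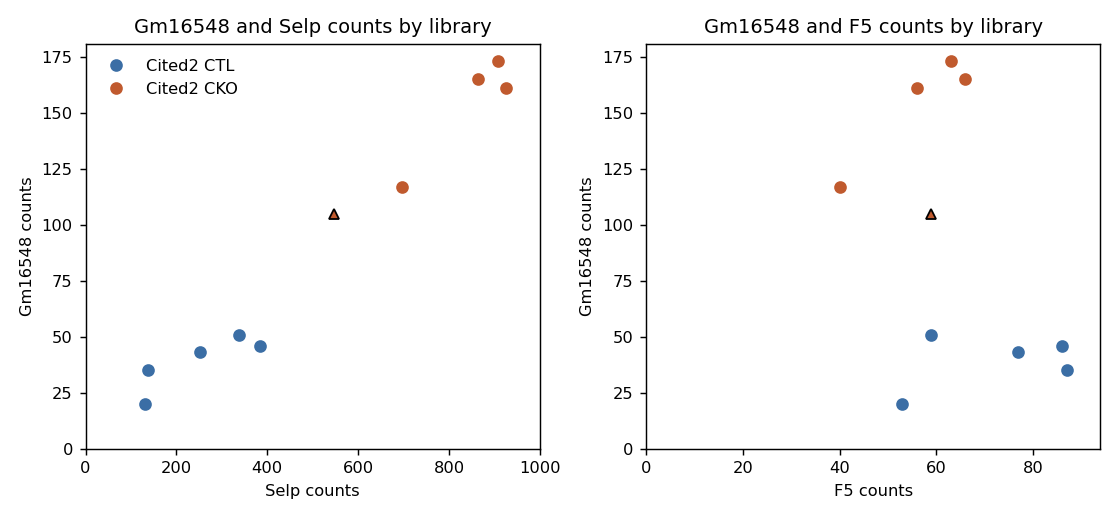
Counts of *Gm16548* (vertical axis) against counts of *Selp* (left) and of *F5* (right), 1 point per library, with CKO 3 as a triangle. *Gm16548* kept a like share of *Selp* in both genotypes, 16.97% on average in CTL and 18.3% in CKO, whereas the CKO points stand above the CTL points over a shared range of *F5* counts.

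*F5* encodes coagulation factor V, a cofactor of thrombin formation. It lies on the plus strand at chr1:164151838-164220277, 1811 bases past the end of *Selp*. Its level was 17.7, 14.9, 25.6, 21.0 and 16.8 CPM in CTL libraries and 14.97, 16.3, 14.0, 11.8 and 12.9 CPM in CKO libraries. The genotypes overlapped at the low end of the controls, with a mean of 19.2 ± 4.18 CPM in CTL and 14.0 ± 1.77 CPM in CKO (SD, n = 5 each). The log2 fold change was -0.46 ± 0.21 (SE), and -0.45 without CKO 3. Of the 1226 exon bases of *Gm16548*, 262 are shared with *F5*, and how many of its reads fell there was not tested. With all *Gm16548* counts added to those of *F5*, the log2 fold change was 0.76, as *Gm16548* outnumbers *F5* in CKO libraries. The same addition to *Selp* gave 1.64.

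Around the cluster, 9 annotated neighbours, from *Kifap3* to *Atp1b1*, are reported beside the members. edgeR called 0 of them higher and 0 lower, beside 0.12% of all tested genes called higher and 0.106% lower. At an unadjusted p under 0.05 likewise 0 of the 9 were higher and 0 lower, and DESeq2 and limma-voom called 0. Of the 9, 7 had a log2 fold change above 0, with a median of 0.10 against 0.01 for all tested genes. *Scyl3*, upstream of *Sele*, and *Nme7*, downstream of *F5*, had log2 fold changes of 0.14 and 0.28 (adjusted p of 0.667 and 0.509, edgeR), *Slc19a2*, a thiamine transporter gene, 0.13, and *Kifap3* 0.10. *Atp1b1*, a subunit of the sodium pump, had -0.79 (adjusted p of 0.678), and between -1.29 without CKO 2 and -0.43 without CTL 2.

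**Figure D3:**
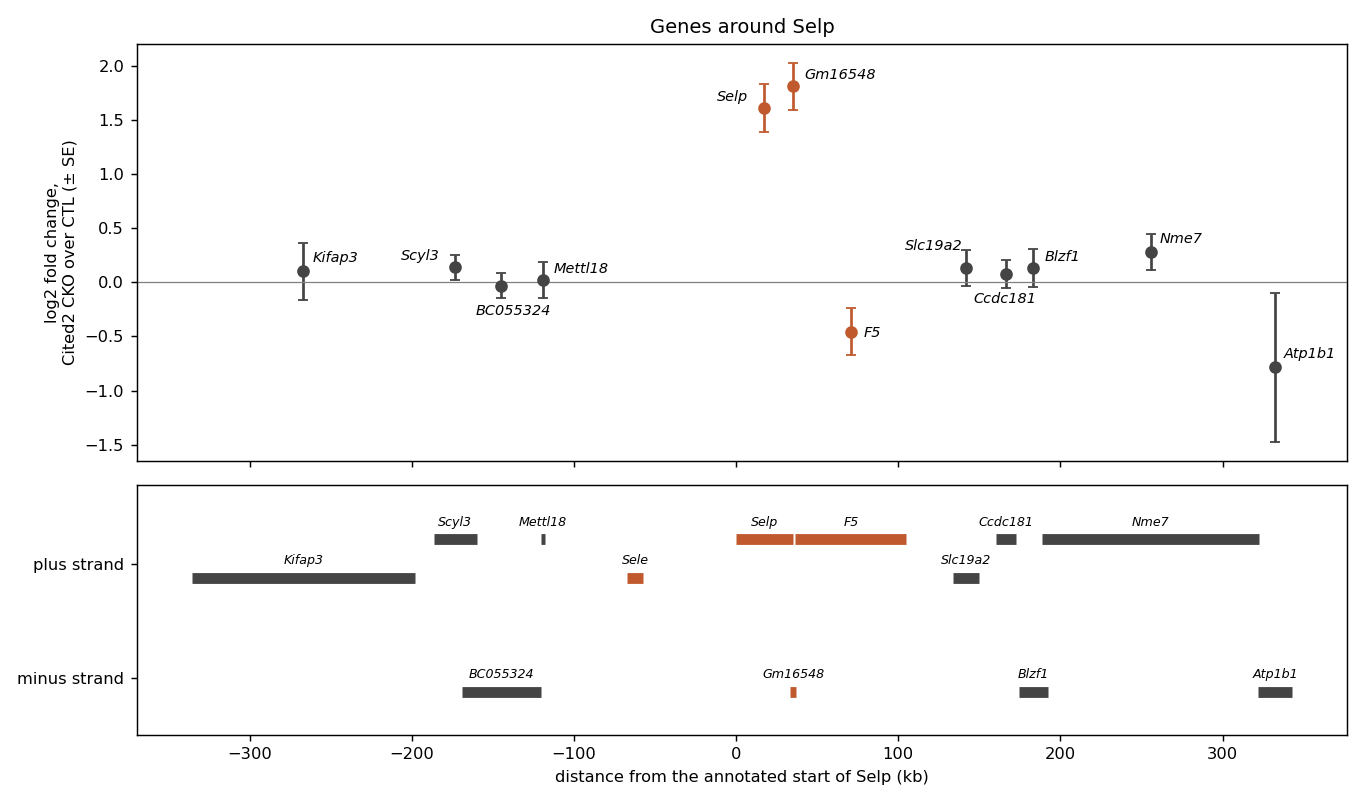
Log2 fold change of CKO over CTL (upper panel, ± SE) for the reported genes around *Selp*, and the annotated extent of each gene by strand (lower panel), against distance from the start of *Selp* in kilobases. Members are in orange and other genes in grey. *Selp* and *Gm16548* stand side by side at 1.61 and 1.81, and *F5* is at -0.46.

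The ligand genes came next. *Selplg* encodes PSGL-1, the main P-selectin ligand of leukocytes, and lies on the minus strand at chr5:113818536-113832644. Its level was 178, 150, 124, 139 and 149 CPM in CTL libraries and 139, 122, 108, 125 and 160 CPM in CKO libraries. The groups overlapped, with means of 148 ± 19.9 and 131 ± 19.3 CPM (SD, n = 5 each) and a log2 fold change of -0.17 ± 0.12 (SE), or -0.11 without CKO 3.

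*Cd44* encodes a hyaluronan receptor that binds E-selectin when suitably glycosylated, and lies at chr2:102811141-102901665 on the minus strand. Its level was 221, 245, 251, 203 and 247 CPM in CTL libraries and 267, 297, 236, 249 and 260 CPM in CKO libraries. The groups overlapped through CKO 3 and CKO 4, and the log2 fold change was 0.17 ± 0.08 (SE), or 0.20 without CKO 3. The value was 0.03 once libraries were corrected for their trends with GC content and length.

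*Fut7* (chr2:25423267-25426374, plus strand) and *Fut4* (chr9:14748320-14752393, minus strand) encode the fucosyltransferases that finish the selectin-binding sugar. *Fut7* stood at 40.8, 41.4, 31.7, 39.0 and 32.4 CPM in CTL libraries and at 45.4, 37.6, 25.1, 50.6 and 31.3 CPM in CKO libraries. Both the lowest and the highest value were in CKO libraries, and the log2 fold change was 0.03 ± 0.19 (SE), or 0.15 without CKO 3. *Fut4* stood at 13.4, 17.2, 25.6, 18.3 and 12.5 CPM in CTL libraries and at 30.9, 24.7, 12.3, 20.3 and 8.30 CPM in CKO libraries, again with both extremes in CKO. Its log2 fold change of 0.15 ± 0.33 (SE) had the widest error of the 8 measured members, and was 0.27 without CKO 3.

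*St3gal4* (chr9:35046576-35119268, minus strand) encodes a sialyltransferase that caps the same sugar. It stood at 78.3, 59.6, 65.6, 62.1 and 63.5 CPM in CTL libraries and at 74.9, 75.0, 69.0, 83.2 and 61.8 CPM in CKO libraries. The groups overlapped, and the log2 fold change was 0.15 ± 0.11 (SE), or 0.16 without CKO 3. An opposite-strand gene, *4930581F22Rik*, covers 14.1% of its annotated exon bases, and how many of its reads fell there was not tested.

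Levels were compared between genes after division by the deposited gene length, as CPM per kilobase. In CTL libraries the order was *Selplg* (56.8 ± 7.65 CPM per kilobase, SD, n = 5), *Cd44* (41.3 ± 3.63), *St3gal4* (32.4 ± 3.59), *Fut7* (18.8 ± 2.36), *Selp* (18.5 ± 7.08), *Gm16548* (8.13 ± 1.85), *Fut4* (4.74 ± 1.42), *F5* (2.59 ± 0.565) and *Sele* (0.388 ± 0.137). The ranges overlapped for *Cd44* and *St3gal4*, *Fut7* and *Selp*, *Gm16548* and *Fut4*, and *Fut4* and *F5*, and they did not for the other neighbours in the order. *Selplg* lay at the 84.4th percentile of the tested genes in CTL libraries, *Selp* at the 54.1st and *F5* at the 18.1st.

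In CKO libraries *Selp* had the highest mean, 56.8 ± 10.8 CPM per kilobase, beside 50.2 ± 7.40 for *Selplg*, 46.3 ± 4.04 for *Cd44*, 35.9 ± 3.92 for *St3gal4* and 28.7 ± 5.37 for *Gm16548*. The ranges of *Selp*, 37.6 to 62.8, and *Selplg*, 41.7 to 61.2, overlapped, so these neighbours were not apart beyond their spread. *Selp* was above *Selplg* in 4 of 5 CKO libraries, all but CKO 3, and in 0 of 5 CTL libraries. *Fut7* was above *Selp* in 3 of 5 CTL libraries and in 0 of 5 CKO libraries. *Fut4*, *F5* and *Sele* stayed the lowest genes in both genotypes.

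**Figure D4:**
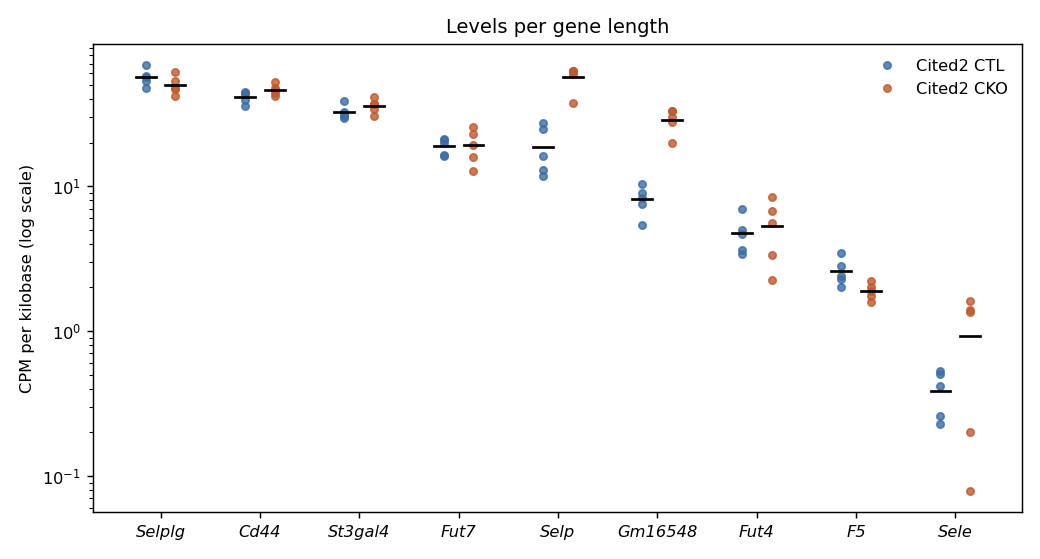
CPM per kilobase of gene length (log scale) of the 9 genes, in the order of their CTL means. Points are libraries, blue for Cited2 CTL and orange for Cited2 CKO, and the black bar is the mean. *Selp* moves from the fifth place in CTL to the first in CKO, whereas *Fut4*, *F5* and *Sele* stay at the bottom.

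The genes most like *Selp* across the 10 libraries, after each genotype's mean log2 CPM was removed, were looked up among the 11248 genes whose log2 CPM averaged 3 or more. The closest were *Ifi44* (Pearson's r of 0.95, Spearman's rho of 0.85), *Trim30b* (0.92 and 0.75), *Ccdc17* (0.91 and 0.87), *Akt1* (0.91 and 0.76) and *Ifit1bl1* (0.91 and 0.85), picked as the highest of all. *Gm16548* reached r = 0.76 and rho = 0.79, at rank 169, while *F5* had r = -0.28, *Selplg* 0.24 and *Cd44* -0.04. Within CTL and within CKO, r was 0.69 and 0.96 for *Gm16548*, -0.4 and 0.05 for *F5*, -0.04 and 0.71 for *Selplg*, and -0.44 and 0.69 for *Cd44*. *Selp* varied within CKO mainly through CKO 3, at 129 CPM beside 205 to 216 CPM in the other CKO libraries. These values describe how libraries of 1 genotype vary together and share library depth and composition.

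Genes around the selectins were taken from 6 lists of 103 genes in all, of which 92 were tested. The lists cover ligand sugars, ligand scaffolds, ligand signalling, the alpha granule, partners of factor V and the neighbours of the cluster. The partners of factor V and the neighbours were not listed for a role in selectin binding, so the pooled counts do not describe selectin function alone. edgeR called 0 of the 92 higher and 0 lower. At an unadjusted p under 0.05, 8 were higher and 8 lower, beside 5.80% and 7.08% of all tested genes. DESeq2 called 3 higher (*Rab27b*, *Gcnt1* and *Itgal*) and 0 lower, beside 1.15% higher and 1.37% lower of all genes it tested, and limma-voom called 0, beside 0.0918% higher and 0.106% lower.

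Of 30 tested genes that assemble the ligand sugars, edgeR called 0, beside 0.12% higher and 0.106% lower of all tested genes. There were 4 higher and 4 lower at an unadjusted p under 0.05, beside 5.80% and 7.08% of all tested genes. The median log2 fold change was 0.02, with 16 genes above 0 and 14 below. *Gcnt1*, which builds the branched core on which the PSGL-1 sugar sits, averaged 160 ± 16.5 CPM in CTL and 201 ± 21.8 CPM in CKO (SD, n = 5 each), with a log2 fold change of 0.33 ± 0.09 (SE) and an adjusted p of 0.149 by edgeR and 0.0351 by DESeq2. With the correction for GC content and length its log2 fold change was 0.195 and the adjusted p 0.826 (edgeR). *Slc35c1*, the carrier of GDP-fucose into the Golgi, averaged 113 ± 9.82 and 87.4 ± 10.9 CPM, with an adjusted p of 0.152 (edgeR). *Papss1*, which makes the sulfate donor, averaged 90.6 ± 4.83 and 75.2 ± 6.12 CPM, with an adjusted p of 0.243 (edgeR). Every *Papss1* value in CKO libraries stood below every CTL value, and CTL 1 was well above the other controls at 98.98 CPM. *Fut9*, a fucosyltransferase gene, had every CKO library above every CTL library, at 3.99 ± 1.97 and 9.32 ± 2.54 CPM (adjusted p of 0.280, edgeR). Of the 30 genes, 1 lay wholly above and 1 wholly below, beside 1.35% and 1.98% of all tested genes.

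Of 9 tested scaffold proteins that can carry selectin ligands, edgeR, DESeq2 and limma-voom called 0. With an unadjusted p under 0.05 there were 0 higher and 1 lower, beside 5.80% and 7.08% of all tested genes. *Podxl*, a sialomucin, averaged 38.2 ± 7.22 CPM in CTL and 24.1 ± 5.92 CPM in CKO (SD, n = 5 each), with a log2 fold change of -0.66 ± 0.20 (SE) and an adjusted p of 0.181 (edgeR). *Cd24a* and *Emcn* had log2 fold changes of 0.14 and 0.19.

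Of 20 tested genes that signal from PSGL-1 and CD44, edgeR called 0. There were 2 higher and 2 lower at an unadjusted p under 0.05, beside 5.80% and 7.08% of all tested genes. *Itgal*, the alpha chain of the integrin LFA-1, averaged 15.5 ± 6.57 CPM in CTL and 35.8 ± 15.2 CPM in CKO (SD, n = 5 each), with a log2 fold change of 1.201 ± 0.36 (SE) and an adjusted p of 0.176 by edgeR and 0.0465 by DESeq2. *Ezr*, encoding ezrin, which links CD44 to actin, averaged 128 ± 9.91 and 102 ± 14.0 CPM, with an adjusted p of 0.207 (edgeR). Its CKO libraries all lay below its CTL libraries. Of the 20 genes, 0 lay wholly above and 1 wholly below, beside 1.35% and 1.98% of all tested genes. *Rap1b* had a log2 fold change of 0.21.

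P-selectin and factor V are both alpha granule proteins of platelets. Of 14 tested genes in the alpha granule list, edgeR called 0, with a median log2 fold change of 0.00 and 7 genes on each side of 0. An unadjusted p under 0.05 was reached by 1 higher and 1 lower gene, beside 5.80% and 7.08% of all tested genes. *Rab27b*, a small GTPase of granule secretion, averaged 132 ± 26.8 CPM in CTL and 201 ± 35.1 CPM in CKO (SD, n = 5 each), with a log2 fold change of 0.61 ± 0.14 (SE) and an adjusted p of 0.0948 by edgeR and 0.00419 by DESeq2. *Nbeal2*, needed for the formation of alpha granules, differed by -0.29 on the log2 scale (adjusted p of 0.300, edgeR) and was the gene lower at an unadjusted p under 0.05, and *Cd63*, a granule membrane protein, had -0.16 (adjusted p of 0.414). *Vwf*, which shares storage granules with P-selectin, averaged 140 and 136 CPM, with a log2 fold change of -0.05 and an adjusted p of 0.924 (edgeR).

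Of 10 tested partners of factor V in coagulation, edgeR, DESeq2 and limma-voom called 0. Only 1 gene was higher and 0 lower at an unadjusted p under 0.05, beside 5.80% and 7.08% of all tested genes. That gene, *Tfpi*, an inhibitor of the start of coagulation, averaged 137 ± 10.3 CPM in CTL and 160 ± 12.7 CPM in CKO (SD, n = 5 each), with a log2 fold change of 0.23 ± 0.08 (SE) and an adjusted p of 0.270 (edgeR). On the log2 scale, *Pros1*, encoding protein S, differed by 0.34 (adjusted p of 0.540, edgeR) and *F8*, encoding factor VIII, by -1.12 ± 0.68 (SE, adjusted p of 0.526). The *F8* value lay between -1.83 without CKO 2 and -0.81 without CKO 5, and was -2.22 by limma-voom.

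**Figure D5:**
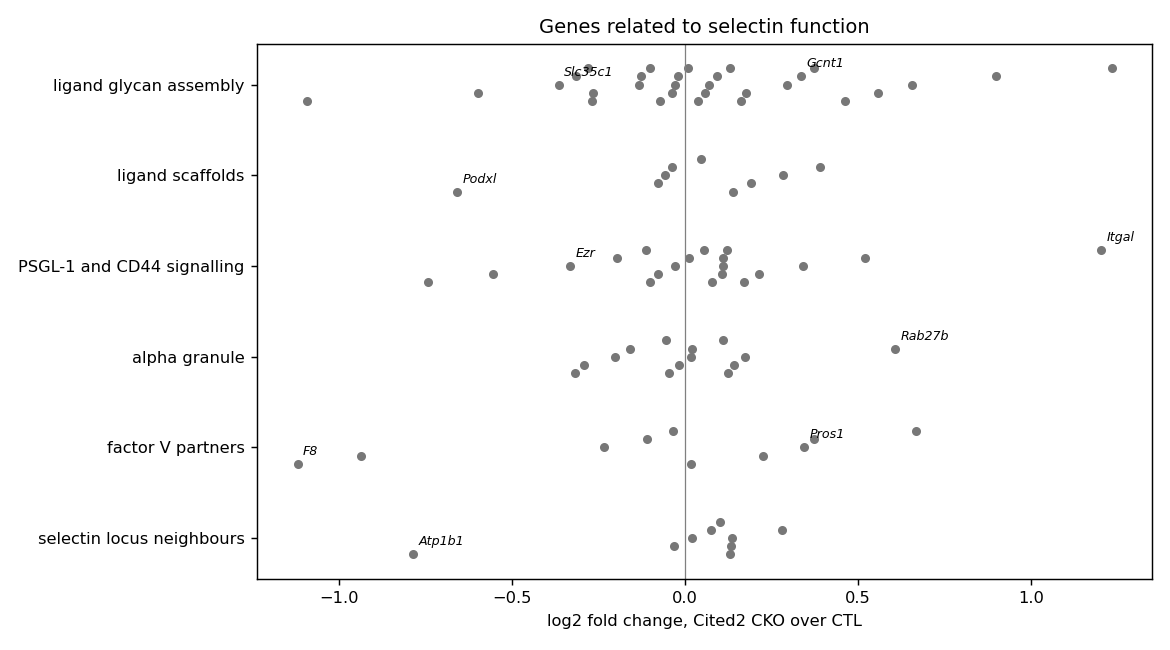
Log2 fold change of CKO over CTL (horizontal axis) of each tested gene of the 6 lists (rows). Each circle is 1 gene, and none of those shown passed edgeR's test. *Itgal*, *Rab27b*, *Podxl* and *Gcnt1* are among the labelled genes away from 0.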

How the data were processed

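PolyA RNA was measured in sorted HSCs of 5 mice per genotype. The authors aligned the single-ended reads to GRCm38 with HISAT2 2.1.0, counted them per gene with Rsubread 2.0.1 and deposited raw counts per gene symbol beside gene lengths in bases. The annotation, the use of strand and the handling of multimapping or duplicate reads are not given in the sources used here.

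Counts were analysed with edgeR 4.0.16 in R 4.3.3 (filterByExpr, TMM, robust quasi-likelihood F test, Benjamini-Hochberg adjustment over 14165 genes). The common biological coefficient of variation was 25.3%. CPM used TMM-normalized library sizes, and log2 CPM a prior count of 2. Samples were grouped by the genotype in their labels, and all 10 libraries were used. The text names the 9 members, *Cited2*, called genes of each list filled up to 3 by the smallest p-value, the 5 genes most like *Selp*, and genes of the locus. *Vwf*, *Fut9* and the single marker genes were picked once their values were known. Gene positions came from GENCODE (GRCm38) and promoters from RefSeq (GRCm38.p6). Some genes of the lists are not reported here and are left out of the list counts. The members and lists were chosen with earlier results of these data known. Alternatives were DESeq2 1.42.0, its size factors, limma-voom (limma 3.58.1), other filters, thresholds and offsets, a replicate block, and each library left out. Scripts were tested on simulated data.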

Additional observations from a re-analysis of the deposited data

Results flagged for a closer look

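*Selp* in library CKO 3 stood at 129.3 CPM, far below the other 4 CKO libraries, and *Papss1* in library CTL 1 stood at 98.98 CPM, far above the other 4 CTL libraries. Both were picked out by the gap to the nearest library of their genotype relative to the range of that genotype. Chance picks out about 1 in 20 such groups of libraries, and 54 were examined. CKO 3 is also the CKO library with 120 CPM of *Cited2*, and the link between its *Cited2* and *Selp* levels was not tested.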

How the results depend on the processing

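The log2 fold change of *Selp* lay between 1.48 and 1.79 and that of *Gm16548* between 1.69 and 1.92 under all alternatives, each library left out included. *F5* turned from -0.46 to 0.76 when all *Gm16548* counts, which outnumber those of *F5* in CKO libraries, were added to it. How many of these counts came from the bases shared with *F5* was not tested. *Cd44* went from 0.17 to 0.032 with an offset for each library's GC and length trends and to 0.025 with that offset and the replicate block, the latter added after seeing the data. The offset alone also moved *Fut7* to 0.24, *Fut4* to 0.24 and *St3gal4* to 0.23, and it moved by over 1.5 times the values of *Gcnt1* (0.195), *Slc35c1* (-0.17), *Tfpi* (0.08), *Rap1b* (0.055), *Emcn* (0.018), *Cd24a* (0.013), *Nbeal2* (-0.061), *Cd63* (-0.004), *Scyl3* (0.072) and *Pros1* (0.22), none of which edgeR called. With single libraries left out, *Selplg* lay between -0.27 and -0.11, *St3gal4* between 0.09 and 0.21, *Pros1* between 0.22 and 0.51, *Rap1b* between 0.13 and 0.24, *Scyl3* between 0.07 and 0.18, *F8* between -1.83 and -0.81, and *Atp1b1* between -1.29 and -0.43. *Fut7* (-0.09 to 0.15) and *Fut4* (-0.09 to 0.34) changed sign when single libraries were left out. edgeR called 17 genes higher and 15 lower, DESeq2 147 and 175, the offset 5 and 3, the offset with the block 9 and 3, and an adjusted p under 0.01 5 and 3. Leaving out 1 library gave 5 (without CKO 2) to 27 (without CKO 3) higher and 3 to 18 lower. The reported locus neighbours had 0 calls under every alternative run. DESeq2 called 1 gene each in the lists of glycan assembly (*Gcnt1*), PSGL-1 and CD44 signalling (*Itgal*) and the alpha granule (*Rab27b*). The replicate block called 9 genes lower in all and, from the alpha granule list, 1 gene, *Rab27b*, higher. Deviations of the same-numbered libraries correlated between -0.09 and 0.21. Of the CTL libraries, only CTL 5 correlated most with the CKO library of its own number. Whether same-numbered libraries share more than a number was not tested further. The cause of these changes was not tested. Depth limits *Sele*, with 1 to 20 counts per library.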
